A study of Mus musculus with 13 samples.

Results

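A set of 9 genes of apoptotic cell clearance was followed in RNA from sorted microglia, the resident macrophages of the brain. It comprises the receptor genes Mertk, Lrp1, Msr1 and Cd36, the genes of the bridging proteins Gas6, Pros1 and Mfge8, and the engulfment genes Elmo1 and Dock2. The genes were chosen by name and all 9 were among the 14518 gene entries of the table. The cells came from brains of C57BL/6 mice aged 2 months, by a Percoll step and a sort for CD11b with an intermediate CD45 signal. Mice of the RSD group (n = 7) underwent repeated social defeat, a stress in which an aggressor is placed with them, for 6 cycles, with RNA collected 24 days later. The CON group (n = 6) held the controls, and no genetic change or drug is named for either group. The comparison addresses whether expression in microglia differed at that delay. Nothing in the labels ties a sample to its own animal, and the p-values therefore reflect sample-to-sample spread, which may be technical.

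Cells that die by apoptosis expose phosphatidylserine on their surface, and phagocytes take them up before they break open. Some receptors bind the dying cell directly, and others, such as the receptor tyrosine kinase encoded by Mertk, bind through a soluble bridging protein. Engulfment then needs actin to be rebuilt, which the ELMO and DOCK proteins drive by activating Rac. In the brain, microglia use this machinery to clear dying neurons and to remove synapses.

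A pair of libraries stood apart. Differences of the 9 genes and medians of lists of other pathway genes are given with and without them. Single genes of those lists are given at most without CON 18. In the library CON 18 the microglial genes P2ry12 and Tmem119 stood at 42.7% and 59.4% of the median of the other libraries. In the library RSD 8 Tmem119 was lower still, at 54.4%, and P2ry12 was at 129%. Csf1r was at 71.0% in CON 18 and 70.3% in RSD 8. Fcrls was higher in CON 18 than elsewhere (12344, against 8134 to 11967), and Olfml3 was at 89.8%. The summed level of 12 microglial markers was 215870 normalized reads in CON 18, against 330760 to 352216 in RSD and 338037 to 352877 in the other 5 controls. Of 10 border macrophage markers 8 were in the table, Lyve1 and Cd209f not being among them. Their sum was 16147 in CON 18, 275.9 to 401 in the other controls and 330 to 509 in RSD. Of that list Ms4a7 was at 1839 in CON 18 and 1.04 to 8.35 elsewhere, and Pf4 at 219 and 0 to 8.70. Of the monocyte markers Ccr2 was at 347 in CON 18 and 295 to 357 elsewhere, and Lyz2 at 8416 and 430 to 674. The other library, RSD 8, deviated from the rest by the base composition of transcripts, with a Spearman correlation of -0.725 between deviation and GC content over 11878 genes. The remaining 12 had -0.563 (RSD 2) to 0.397 (CON 4), and CON 18 had -0.085. Depth was 9760417 to 12273164 reads per library.

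Read per kilobase of exons, the genes fell into an abundant set of 6 and a scarce set of 3. Mertk had the highest level, with a median of 2828 normalized reads per kilobase over the 13 libraries. Lrp1 followed at 1971, Pros1 at 1089, Elmo1 at 912, Dock2 at 667 and Gas6 at 469. Mfge8 was 24.8-fold lower per kilobase than Gas6 within a library (median ratio, with a range of 18.8 to 31.2), at 19.2. Msr1 and Cd36 were lowest, at 4.09 and 3.56.

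**Figure D1:**
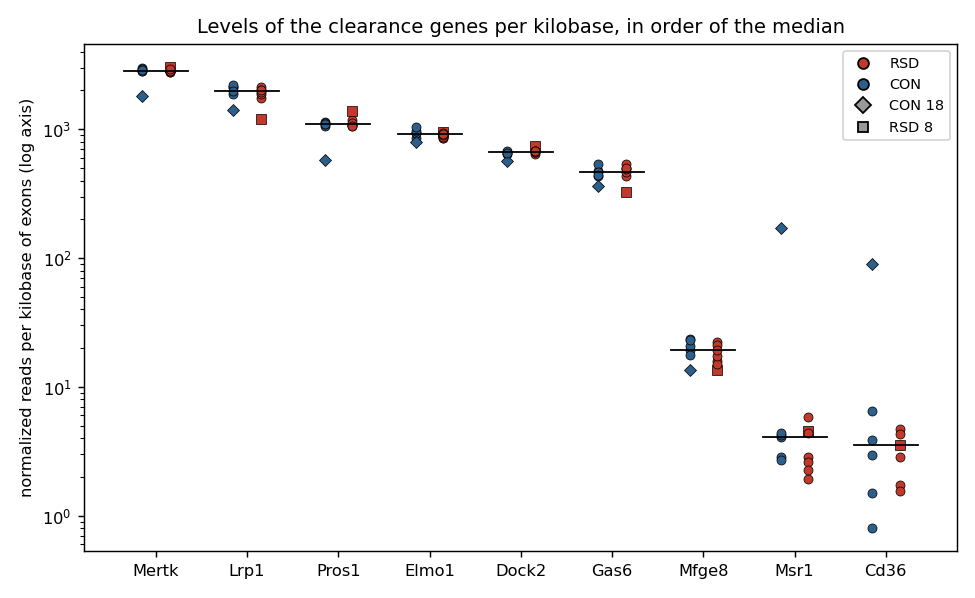
Normalized reads per kilobase of exons (log axis) for each gene, ordered by the median over 13 libraries (horizontal line); points are libraries, CON blue and RSD red, with CON 18 as a diamond and RSD 8 as a square. The 6 abundant genes lie well above Mfge8, Msr1 and Cd36, except that CON 18 holds 170 for Msr1 and 90.1 for Cd36.

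Not every step of this order was larger than the spread between libraries. Mertk exceeded Lrp1 in 13 of 13 libraries, Elmo1 exceeded Dock2 in 13 and Dock2 exceeded Gas6 in 13. Lrp1 exceeded Pros1 in 12 of 13, RSD 8 being the exception, and Pros1 exceeded Elmo1 in 12 of 13, all but CON 18. Msr1 exceeded Cd36 in 8 of 13, so these neighbours could not be ordered. Lengths were those of all exons of a gene merged. With the longest transcript in their place, Elmo1 (2100 per kilobase) moved above Pros1 (1348), and the order of the others was kept.

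Mertk, which recognises dying cells through Gas6 and Pros1, had nearly the same level in 12 of the 13 libraries. The controls ran from 7866 to 12886 normalized reads with a median of 12384, and the RSD libraries from 11966 to 13190 with a median of 12255. The low value was CON 18, and the other 12 libraries lay within 1.10-fold of each other. Without CON 18 the coefficient of variation was 2.98%, and 18 of the 12496 genes tested had a smaller one. With it the coefficient was 10.9%, and 2656 genes had a smaller one. A bulk library cannot tell fewer cells of a type from less RNA per cell, so these cannot be told apart in the value of CON 18, 64.0% of the median of the others.

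Lrp1 encodes a large endocytic receptor that takes up ligands such as calreticulin on dying cells. It stood at 25206 to 39021 in CON, with a median of 36261, and at 21362 to 37695 in RSD, with a median of 34421. The lowest value was RSD 8, 60.4% of the level in the other libraries, and CON 18 was next at 71.3%. The remaining 11 libraries spanned both groups and overlapped.

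Msr1 and Cd36 encode scavenger receptors, which bind oxidised lipids and other polyanionic or lipid ligands on dying cells. Msr1 was at 17.1 to 1076 normalized reads in CON, with a median of 26.4, and at 12.2 to 37.2 in RSD, with a median of 17.9. Cd36 was at 2.88 to 323 in CON, with a median of 12.3, and at 5.55 to 16.9 in RSD, with a median of 12.8. Both maxima were CON 18, where Msr1 was 49.0-fold and Cd36 27.6-fold the median of the other libraries. Elsewhere both were scarce: Cd36 had 3 reads in CON 17 and 6 in CON 1. At that depth a difference between the groups was not detectable unless large. Both passed the filter on low values, as did the other 7.

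**Figure D2:**
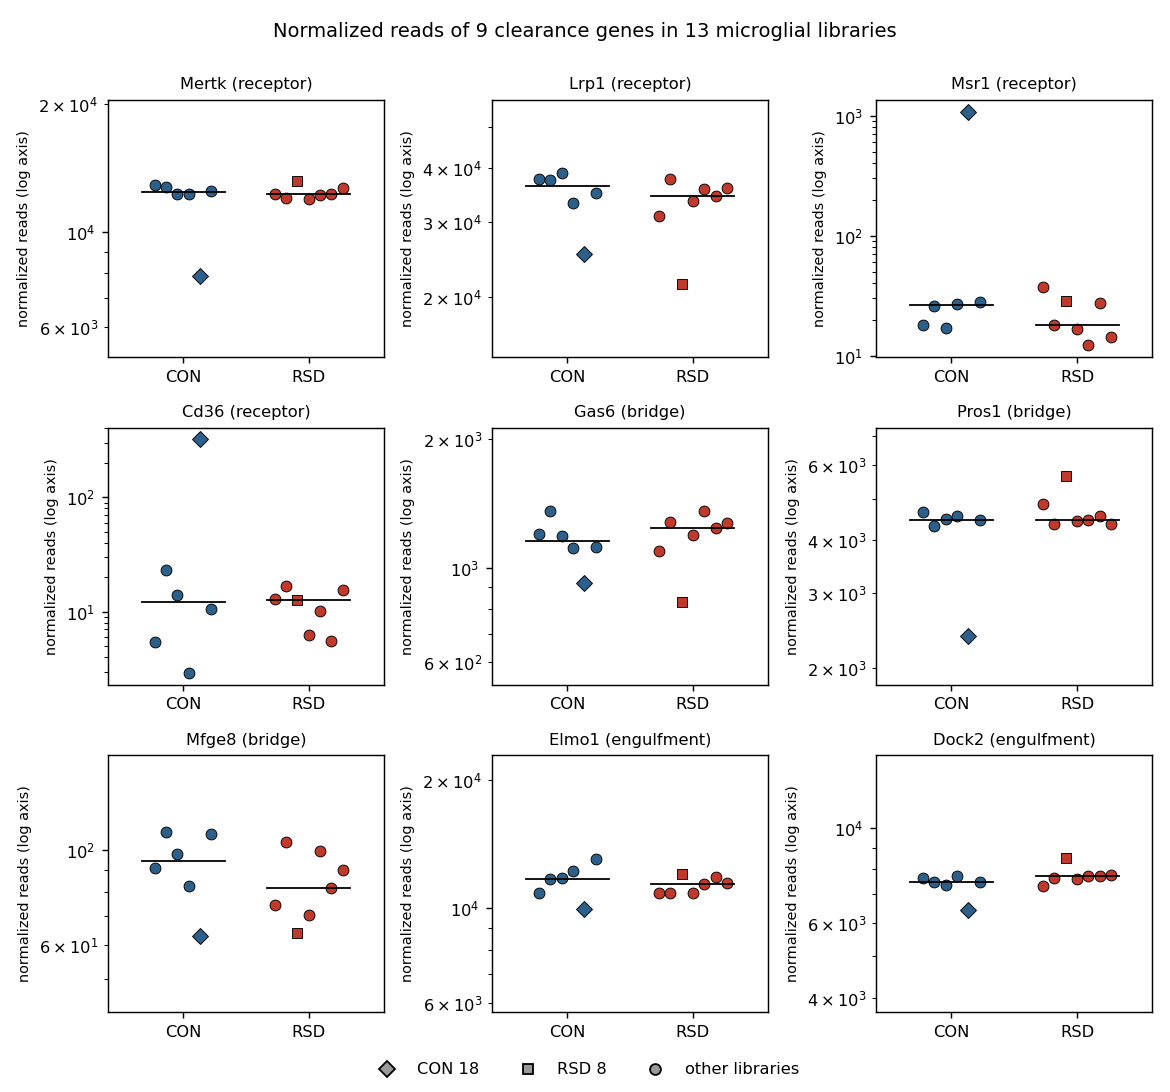
Normalized reads (log axis) of each gene in the CON (blue) and RSD (red) libraries, with the group median as a line, CON 18 as a diamond and RSD 8 as a square. The groups overlap for all 9 genes, and the points farthest from the rest are CON 18 for Mertk, Pros1, Msr1 and Cd36, and RSD 8 for Lrp1.

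In CON 18, then, Msr1 and Cd36 were high while Mertk and Lrp1 were low. Axl, a receptor of the same kinase family as Mertk that also binds Gas6, was at 6716 there and at a median of 143 in the others. Over all genes tested, 6.36% stood above 2-fold of the median of the others in CON 18 and 7.11% below 50% of it. Among the 9 genes 2 were above and 0 below. The part of the macrophage markers given above in these values was not tested. Endothelium can also express Cd36, and 5 of 9 endothelial markers were in the table. Their sum was 197 in CON 18 and 432 to 576 elsewhere, and the gap lay in Pecam1 (43.9, against 309 to 461). Kdr (99.2) and Cdh5 (25.9) were within the range of the other libraries, as was Slco1a4 (1.13), and Flt1 was above it (27.0, against 2.22 to 13.0). Their part in the level of Cd36 was not tested.

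The bridging proteins differed in level and in how they varied. Gas6, the vitamin K-dependent ligand of Mertk and Axl, was at 920 to 1361 in CON with a median of 1153, and at 832 to 1361 in RSD with a median of 1241. Pros1, protein S, its relative and another Mertk ligand, was at 2374 to 4644 in CON with a median of 4462. In RSD it was at 4350 to 5649 with a median of 4444. CON 18 was the lowest control for both, with Gas6 at 76.7% and Pros1 at 53.2% of the level in the other libraries. RSD 8 was the lowest of all libraries for Gas6 (69.4%) and the highest for Pros1 (127%).

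The ratio of Pros1 to Gas6 therefore moved with these libraries. Per kilobase, Pros1 was 2.04 to 2.76 times Gas6 in the RSD libraries other than RSD 8, where it was 4.23 times. In CON it was 1.98 to 2.54 times, except in CON 18 at 1.61 times. The group means were 2.56 ± 0.78 (SD, n = 7) in RSD and 2.23 ± 0.36 (SD, n = 6) in CON, and the groups overlapped. In RSD 8 the genes with GC content like that of Pros1 deviated by a median of 0.42 on the log2 scale. Those like Gas6 deviated by -0.53, and the part of base composition in the ratio was not tested.

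Mfge8, which links phosphatidylserine to integrins, was scarce. It was at 63.1 to 110 in CON with a median of 94.5, and at 63.8 to 104 in RSD with a median of 81.4. CON 18 and RSD 8 held the lowest value of their groups, and the groups overlapped. Astrocytes are a known source of Mfge8 and also express Mertk. Of 9 astrocyte markers 5 were in the table, Gfap, Gja1, Aldoc and Gjb6 not being among them. The sum of those 5 was 1280 to 1633 in RSD, 1266 to 1633 in the other controls and 501 in CON 18. In CON 18 Slc1a3 (361, against 1128 to 1473 elsewhere) and Aqp4 (37.2, against 99.9 to 181) were low. Slc1a2 was higher there than in any other library (87.9, against 8.65 to 75.8), and Aldh1l1 was at 14.7 (0 to 15.3). The part of these markers in the levels of Mfge8 and Mertk was not tested.

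Elmo1 and Dock2 encode partners of 1 complex, a scaffold and the exchange factor that activates Rac, and both had stable, high levels. Elmo1 was at 9971 to 13064 in CON with a median of 11742, and at 10836 to 12046 in RSD with a median of 11423. Dock2 was at 6433 to 7707 in CON with a median of 7482, and at 7311 to 8511 in RSD with a median of 7708. CON 18 was again the lowest control for both genes, which stood at 86.1% and 84.3% of the level in the other libraries. Without it the coefficient of variation was 5.91% for Elmo1 and 4.01% for Dock2, and 570 and 89 of the 12496 genes had a smaller one. With CON 18 it was 6.91% and 5.93%, and 552 and 258 genes had a smaller one. Without CON 18, 276 genes had at least 5000 normalized reads, with a median of 9.95%. Of these 5 varied less than Mertk, 12 less than Dock2 and 51 less than Elmo1. With CON 18 it was 102, 14 and 31 of 279. Mertk, Dock2 and Elmo1 had a GC content near the median, and its part in their spread was not tested. Elmo1 shares 403 exon bases with the antisense gene Gm32036 and Dock2 460 with 4930403D09Rik, and reads there cannot be assigned, since the use of strand is not given.

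The promoters of 4 genes are shown: Elmo1 and Dock2, which encode partners of 1 complex, Mertk and Cd36. Mertk had the highest level and, without CON 18, the lowest coefficient of variation among the members. Cd36, like Msr1, was high in CON 18. Windows of 300 bases, from 250 before to 50 after the start, come from RefSeq (GRCm38.p6, the assembly also called mm10) and are written 5′ to 3′. RefSeq windows matched all members but Msr1. That of Cd36 lies inside the annotated span of the gene. Capitals mark GAGGAA, a purine box of ETS factors such as PU.1, and GGGCGG, the GC box of SP factors, each on either strand. Other forms of ETS sites were not searched for and are not marked. The motifs did not overlap each other in these windows.

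Elmo1, chr13:20090257-20090556, plus strand: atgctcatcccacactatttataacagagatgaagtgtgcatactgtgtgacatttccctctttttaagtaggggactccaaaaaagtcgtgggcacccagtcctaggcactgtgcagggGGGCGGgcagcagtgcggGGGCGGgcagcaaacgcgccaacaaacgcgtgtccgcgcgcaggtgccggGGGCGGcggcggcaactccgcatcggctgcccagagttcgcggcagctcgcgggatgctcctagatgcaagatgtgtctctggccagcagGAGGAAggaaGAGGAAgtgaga

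Dock2, chr11:34783856-34784155, minus strand: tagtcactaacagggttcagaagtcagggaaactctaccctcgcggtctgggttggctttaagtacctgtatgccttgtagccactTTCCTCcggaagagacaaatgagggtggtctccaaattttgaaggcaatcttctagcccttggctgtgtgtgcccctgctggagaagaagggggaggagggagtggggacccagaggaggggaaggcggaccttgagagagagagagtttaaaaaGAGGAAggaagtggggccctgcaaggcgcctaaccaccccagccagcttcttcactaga

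Mertk, chr2:128698665-128698964, plus strand: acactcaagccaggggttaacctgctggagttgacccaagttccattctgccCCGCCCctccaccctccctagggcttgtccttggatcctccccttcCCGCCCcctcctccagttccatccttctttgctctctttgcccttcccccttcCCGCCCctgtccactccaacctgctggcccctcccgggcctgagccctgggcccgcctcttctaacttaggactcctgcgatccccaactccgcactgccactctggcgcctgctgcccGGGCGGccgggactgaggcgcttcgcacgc

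Cd36, chr5:17835847-17836146, minus strand: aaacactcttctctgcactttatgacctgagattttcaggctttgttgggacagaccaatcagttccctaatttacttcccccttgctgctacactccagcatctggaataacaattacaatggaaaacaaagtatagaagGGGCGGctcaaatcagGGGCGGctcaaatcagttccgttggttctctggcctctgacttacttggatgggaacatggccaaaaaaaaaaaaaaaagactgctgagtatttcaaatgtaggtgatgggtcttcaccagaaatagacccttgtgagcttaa

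GAGGAA was found 2 times in the Elmo1 window and 2 times in that of Dock2, and in neither of the others shown. Relative to the RefSeq start, both matches in Elmo1 lay in the 50 bases after it, and in Dock2 1 lay just before it. The whole Elmo1 window lies upstream of the GENCODE start of the gene. A second Elmo1 window, at an internal start, held none, and among the remaining members Mfge8 held 1. Of all 32851 windows of that length 28.3% held GAGGAA and 35.7% held GGGCGG. The GC box occurred 4 times in the Mertk window, 3 in Elmo1, 2 in Cd36 and 0 in Dock2. The AP-1 motif TGANTCA, present in 7.81% of all windows, was found in none of the 9 windows of members. These are matches of letters and say nothing of binding.

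The genes lie apart in the genome (mm10, GENCODE M21). Mertk spans chromosome 2, 128698956 to 128802894, Lrp1 chromosome 10, 127538161 to 127621148, and Pros1 chromosome 16, 62854307 to 62929346. Gas6 (13465374 to 13494490) and Msr1 (39581685 to 39642673) are both on chromosome 8. Cd36 spans chromosome 5, 17781690 to 17888801, Mfge8 chromosome 7, 79133768 to 79149060, Elmo1 chromosome 13, 20090596 to 20608353, and Dock2 chromosome 11, 34226815 to 34783892.

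The members differed in base composition, and in RSD 8 those rich in GC deviated as other genes of like composition did. The longest transcripts of Lrp1, Gas6 and Mfge8 had 57.9%, 56.6% and 56.2% GC, above that of at least 84.2% of the genes tested. All 3 were low in RSD 8. Lrp1 deviated there by -0.73 on the log2 scale from the median of the other libraries, and the genes of its GC decile by a median of -0.73. Gas6 deviated by -0.53 and Mfge8 by -0.50, where their decile had -0.53. Pros1, with 43.4% GC, deviated by 0.34 where its decile had 0.42. Mertk, Elmo1 and Dock2 had 46.9% to 49.0% GC, near the median of 49.5%. Mertk deviated by 0.11 and Dock2 by 0.16 where their decile had 0.088, and Elmo1 by 0.073 where its decile had 0.20. Msr1 and Cd36 had 38.4% GC and deviated by 0.39 and 0.12 where their decile had 0.55. In CON 18 the decile medians ran only from 0.049 to -0.085, and Mertk (-0.64), Pros1 (-0.91) and Lrp1 (-0.49) lay below them.

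**Figure D3:**
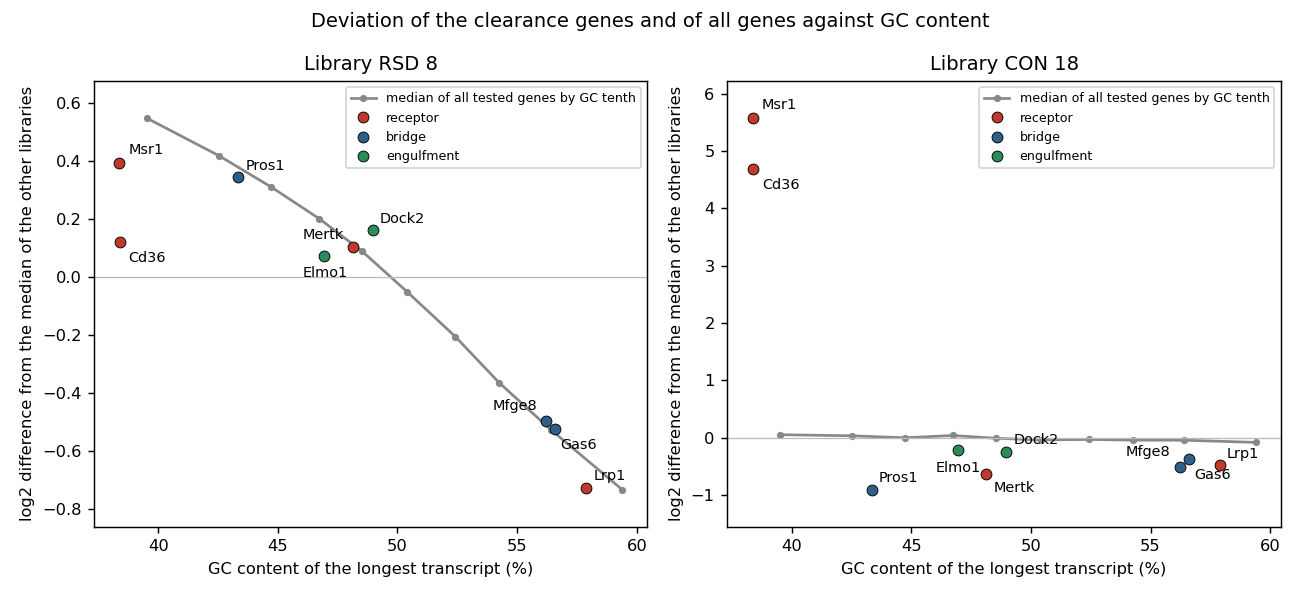
Log2 difference of a library from the median of the others (y axis) against the GC content of the longest transcript in percent (x axis), for RSD 8 (left) and CON 18 (right); coloured points are the 9 genes by role and the grey line is the median of all genes in each GC decile. In RSD 8 the line falls from 0.55 to -0.73 and Lrp1, Gas6 and Mfge8 lie close to it, whereas in CON 18 it stays between 0.049 and -0.085, with Msr1 (5.57) and Cd36 (4.68) far above it.

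None of the 9 genes differed between RSD and CON beyond the spread between samples. With limma, 0 of 12496 genes (0%) passed an adjusted p of 0.05, and the members' adjusted p ran from 0.821 to 0.939. At an unadjusted p under 0.05 limma gave 0 of the 9 members, against 500 of all genes (4.00%). The groups did not overlap for 0 of the 9 members, and for 8 of all genes (0.0640%). Of the members 4 were higher and 5 lower in RSD, with a median log2 difference of -0.03, against 0.01 over all genes tested. Of all genes tested 6420 were higher and 6076 lower.

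Among the members the intervals were narrowest for Elmo1, Dock2 and Mertk. The fold of RSD over CON was 0.98 for Elmo1 (95% interval 0.885 to 1.08), 1.06 for Dock2 (0.963 to 1.16) and 1.07 for Mertk (0.921 to 1.24). It was 0.94 for Lrp1 (0.780 to 1.14), 1.02 for Gas6 (0.871 to 1.20), 1.15 for Pros1 (0.945 to 1.40) and 0.91 for Mfge8 (0.721 to 1.14). Msr1 and Cd36 had wide intervals, at 0.48 (0.141 to 1.66) and 0.65 (0.201 to 2.10), and both estimates rested on CON 18.

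The estimates for 3 genes changed sign without CON 18, namely Mertk, Gas6 and Cd36. On the log2 scale Mertk went from 0.094 ± 0.10 (SE) to -0.018 ± 0.050, Gas6 from 0.034 ± 0.11 to -0.028 ± 0.10 and Cd36 from -0.62 ± 0.79 to 0.21 ± 0.42. Lrp1 went from -0.084 ± 0.13 to -0.17 ± 0.11, Pros1 from 0.20 ± 0.13 to 0.051 ± 0.068 and Msr1 from -1.05 ± 0.82 to -0.13 ± 0.27. Mfge8 went from -0.14 ± 0.16 to -0.24 ± 0.14, Elmo1 from -0.029 ± 0.069 to -0.072 ± 0.058 and Dock2 from 0.077 ± 0.062 to 0.040 ± 0.053. With RSD 8 left out as well, Pros1 stood at 0.0039 ± 0.046, Mertk at -0.033 ± 0.040, Dock2 at 0.017 ± 0.042, Elmo1 at -0.087 ± 0.048 and Lrp1 at -0.073 ± 0.051. Gas6 was positive again at 0.054 ± 0.063, Mfge8 stood at -0.18 ± 0.13, Msr1 at -0.21 ± 0.28 and Cd36 at 0.17 ± 0.43. No member passed in either case, where 0 of 12583 and 0 of 12535 genes did. None was under an unadjusted 0.05 there, against 4.92% and 4.88% of all genes. With all 13 libraries edgeR gave Msr1 and Cd36 log2 differences of -3.16 and -2.45. The unadjusted edgeR p was 0.00597 and 0.0165 (adjusted p = 0.793 for both), where 5.06% of all genes were under 0.05. DESeq2 gave no p for either.

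**Figure D4:**
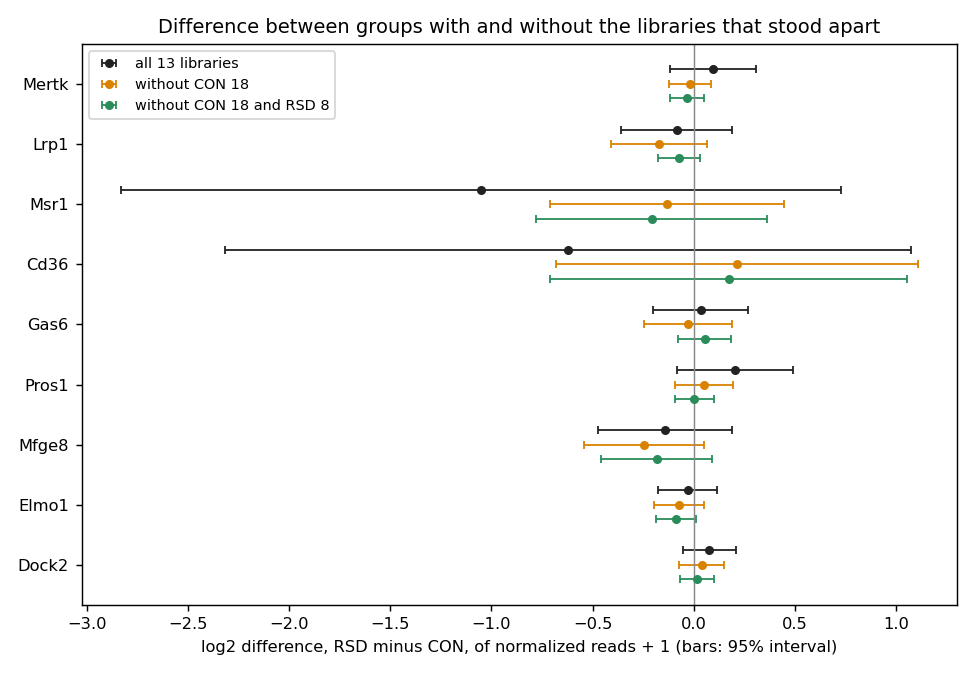
Log2 difference of normalized reads + 1, RSD minus CON (x axis), for each gene with all 13 libraries (black), without CON 18 (orange) and without CON 18 and RSD 8 (green); points are limma estimates and bars 95% intervals. Every bar crosses 0, and the bars of Msr1 and Cd36 shorten once CON 18 is left out.

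Sample numbers in the titles run from 1 to 8 and from 10 to 19, with both groups in each range, and the labels do not say what the numbers stand for. Within numbers 1 to 8 (3 RSD, 3 CON), Lrp1 was at 21362, 30884 and 37695 in RSD and at 37597 to 39021 in CON, a log2 difference of -0.38 ± 0.18 (limma adjusted p = 0.228). After the median deviation of each GC decile was subtracted in each library, that difference was -0.0069 ± 0.061. In this range the correlation of deviation with GC content was 0.185 to 0.397 in CON and -0.725 to -0.049 in RSD. Base composition and group therefore cannot be told apart there, and the subtraction can also remove a difference that goes with group. In this range 22.2% of all genes were under an unadjusted 0.05, or 14.6% after the subtraction, and no member was. Every RSD library was higher for 16.2% of all genes and lower for 14.3%, and no member had either. Within numbers 10 to 19 (4 RSD, 3 CON), Gas6 was at 1196 to 1361 in RSD, above all of CON (920, 1114 and 1117), where 4.30% of all genes had every RSD library higher. Every RSD library was lower for 4.27% of all genes and for no member. The log2 difference of Gas6 was 0.28 ± 0.088 (limma unadjusted p = 0.013, adjusted p = 0.726), where 5.41% of all genes were under an unadjusted 0.05, and in numbers 1 to 8 it was -0.24 ± 0.15. The difference between the ranges was not tested. With a term for the range in the fit of all 13 libraries, no member was under an unadjusted 0.05, against 5.87% of all genes. With the GC medians subtracted in all 13 libraries Gas6 stood at 0.14 ± 0.062, with an unadjusted limma p of 0.0394 (adjusted p = 0.893), where 4.35% of all genes were under 0.05.

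Other genes of the pathway, taken from lists by function, did not pass either. For the counts of positive differences below, 6420 of all 12496 genes tested were positive. Without CON 18 it was 6324 of 12583, and without RSD 8 as well 6301 of 12535. Of 11 tested receptors of phosphatidylserine or dying cells, 0 passed in either direction, 4 were positive and the median log2 difference was -0.12. Without CON 18 6 were positive, with a median of 0.0032. With RSD 8 left out as well 5 were, with a median of -0.015. Cd300a, an inhibitory phosphatidylserine receptor, was at 1000 ± 67.1 in RSD and 904 ± 121 in CON (limma log2 0.15 ± 0.09, or 0.073 without CON 18), and Ager, the receptor of glycated proteins, at 31.7 ± 10.2 and 41.3 ± 12.5 (-0.39 ± 0.24). Of 7 other bridges and eat-me ligands 4 were positive, with a median of 0.094. It was 0.094 without CON 18, where 8 were tested, and 0.016 without RSD 8 as well. These genes included C1qc, a chain of complement C1q (-0.19 ± 0.10), and Tub, a bridging protein of Mertk (0.59 ± 0.32, and 0.31 without CON 18). Of 7 other scavenger receptors 1 was positive, with a median of -0.19. The median was -0.081 without CON 18 and -0.013 without RSD 8 as well. Cd68, a lysosomal glycoprotein, was at -0.20 ± 0.11, or -0.13 without CON 18, and Cxcl16 was at -0.61 ± 0.37, or -0.18 without CON 18, which held 2489 of it against 303 to 522 elsewhere.

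Among 16 engulfment signalling genes 9 were positive, with a median log2 difference of 0.023. Without CON 18 the sign turned, with 5 positive and a median of -0.020. It turned back with RSD 8 left out as well, with 8 positive and a median of 0.0011. Rhog, a GTPase upstream of ELMO, was at -0.20 ± 0.11 and Ptk2, focal adhesion kinase, at 0.34 ± 0.22, or 0.15 without CON 18. Of 5 genes of don't-eat-me signals 2 were positive, with a median of -0.0049. The median was -0.032 without CON 18 and -0.018 without RSD 8 as well. Ptpn11, the phosphatase SHP2, was at 0.11 ± 0.08 and Pilra, an inhibitory receptor, at -0.25 ± 0.19, or -0.054 without CON 18. Of 17 phagosome genes 6 were positive, with a median of -0.021, and without CON 18 10 were, with a median of 0.015. Without RSD 8 as well 9 were, with a median of 0.017. Atg5, which helps attach LC3 to phagosome membranes, was at 559 ± 36.7 in RSD and 502 ± 31.9 in CON (limma log2 0.15 ± 0.07, unadjusted p = 0.0407, adjusted p = 0.821). It was the 1 gene of the 79 tested in all these lists under an unadjusted 0.05, against 4.00% of all genes. Without CON 18, where 4.92% of all genes were under it, the lists held 1 bridge, 1 scavenger receptor and 1 phagosome gene that were higher and 1 engulfment gene that was lower. Rab5a, a GTPase of early phagosomes, was at 0.25 ± 0.13, or 0.16 without CON 18.

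Of 9 genes of sterol sensing and lipid export 1 was positive, with a median log2 difference of -0.15. The median was -0.12 without CON 18 and -0.051 without RSD 8 as well. In RSD 8, the library that deviated by base composition, these 9 genes stood at 34.4% to 104% of the median of the other libraries. Ppard, a lipid-sensing nuclear receptor, was at -0.21 ± 0.11, and Abcg1, a sterol exporter, at -0.15 ± 0.10. Of 7 genes that process the members' proteins 3 were positive, with a median of -0.0065. The median was -0.011 without CON 18 and 0.0036 without RSD 8 as well. Ggcx, the carboxylase that activates the Gas6 and Pros1 proteins, was at 0.18 ± 0.11, and Adam10, a sheddase, at 0.14 ± 0.09. In each list 0 genes passed, against 0 of all genes tested, whose median was 0.01. In RSD 8 the genes named for their list stood at 58.4% (Ppard) to 187% (Ptk2) of the median of the other libraries. C1qc was at 64.2% there, Rhog at 68.3% and Adam10 at 143%. Differences of these single genes without RSD 8 are not given here.

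The genes whose pattern over the 13 samples was most like each member, among 10258 of mean at least 50, were also found, as a description. Each is picked as the highest of so many values over only 13 samples, and such maxima can be high by chance. The samples differed in depth and in deviation by base composition, and CON 18 stood apart, as given above. The part of depth and base composition in the likeness was not tested. Without CON 18 and RSD 8 the Spearman values of the pairs named below ran from 0.709 (Dock2 and Inadl) to 0.964 (Msr1 and Cog6). Lrp1 was most like Abca7 (Spearman 0.962) and Daglb (0.951), Mfge8 like Lmf1 (0.951) and Pip5k1c (0.940), and Gas6 like Ccdc157 (0.929) and Kif21b (0.918). Of these 6 genes, Abca7, Pip5k1c, Ccdc157 and Kif21b had 55.5% to 59.1% GC and all 6 were low in RSD 8 (-0.46 to -0.92 on the log2 scale). Daglb and Lmf1 had 49.9% and 48.9% GC. They deviated in RSD 8 by -0.57 and -0.89, where the genes of their deciles had medians of -0.051 and 0.088. Pros1 was most like Mob1a (0.934) and Atp2c1 (0.912), and Elmo1 like Ceacam1 (0.956) and Lrba (0.940). Among the genes most like Mertk was Sgms1 (0.846), and Dock2 was most like Prkg1 (0.879) and Inadl (0.824). Msr1 was most like Cog6 (0.934) and Runx2 (0.918), and Cd36 like Hexim1 (0.901) and Limd1 (0.874). Pearson values of these pairs were 0.419, 0.985, 0.732 and 0.944 in that order. Msr1 and Cd36 had few reads outside CON 18, so their order over the samples is uncertain. Msr1 and Cd36 themselves had a Spearman value of 0.132, or -0.164 without CON 18 and RSD 8, and Elmo1 and Dock2 had 0.346 and 0.036.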

How the data were processed

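RNA of 13 samples of sorted microglia was sequenced. Per the labels' protocols, libraries were made from PicoPure RNA with the Ovation SoLo system and removal of ribosomal RNA. Per the submitters' processing notes, STAR, DESeq2 and the build mm10 were used. Not given in the sources used here: tool versions, the read counter, its annotation and strand use. The authors deposited a normalized signal, a read count divided by a size factor. In each sample 100% of values were whole multiples of 1 step (tolerance 0.01 reads), so reads were recovered.

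Members and gene lists were chosen with earlier results of these data known. The test was limma (3.58.1, R 4.3.3; trend and robust options, two-sided) on log2(value + 1), which understates changes of low genes. It covered 12496 genes kept by filterByExpr (minimum count 10, total 15), with Benjamini-Hochberg adjustment over all. edgeR (4.0.16) and DESeq2 (1.42.0) were run on recovered reads; other alternatives were pseudocounts, filters, scalings, limma-voom, left-out libraries and sample number ranges. The GC subtraction was added after seeing the data. The limma step was tested on simulated data. Exon lengths, positions and GC content are from GENCODE M21 (11878 of the tested genes matched by symbol). Named genes were the members, the 2 of smallest p in each list, the 2 most like each member, P2ry12 and Tmem119. A gene named by this rule is not reported here. Axl and the other single cell type markers were chosen after their values were seen.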

Additional observations from a re-analysis of the deposited data

Results flagged for a closer look

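A gap test of the highest and lowest library was applied to each gene in each group, 18 gene and group pairs in all, of which chance gives about 1 in 20. It singled out 8 values, each in CON 18 or RSD 8. In CON 18 these were Mertk at 7866 normalized reads (nearest control 12261), Pros1 at 2374 (4323), Dock2 at 6433 (7346), Msr1 at 1076 (28.0) and Cd36 at 323 (23.2). In RSD 8 these were Lrp1 at 21362 (nearest RSD library 30884), Pros1 at 5649 (4865) and Dock2 at 8511 (7773).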

How the results depend on the processing

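The members did not pass in limma or in any alternative that gave a p. The count of genes passing was 0 in limma and 2 with DESeq2, and 0 when each replicate was left out. edgeR gave 0 passing genes and 632 at an unadjusted p under 0.05, limma 500. Some log2 differences changed sign, and the cause was not tested. Within sample numbers 1 to 8 Mertk was at -0.018, Msr1 at 0.41, Cd36 at 0.19 and Gas6 at -0.24. With GC decile medians subtracted there, Mertk was at -0.044, Msr1 at 0.077 and Pros1 at -0.090. Within numbers 10 to 19 Lrp1 was at 0.18 and Mfge8 at 0.031. Without CON 18 and RSD 8 Mertk was at -0.033 and Cd36 at 0.17. With limma-voom Mertk was at -0.022, and with GC decile medians subtracted in all libraries Lrp1 was at 0.052. Leaving out 1 replicate each gave -0.018 to 0.12 for Mertk, -0.17 to 0.016 for Lrp1, -1.31 to -0.13 for Msr1, -1.06 to 0.21 for Cd36 and -0.028 to 0.12 for Gas6. It gave 0.051 to 0.24 for Pros1, -0.24 to -0.080 for Mfge8, -0.072 to 0.0063 for Elmo1 and 0.040 to 0.092 for Dock2. The sign changed without CON 18 (Mertk, Cd36, Gas6), RSD 8 (Lrp1), RSD 11 (Gas6) or CON 19 (Elmo1). No paired analysis was possible because the groups share no sample numbers. Depth limits Msr1 and Cd36, which had few reads outside CON 18. With the filter of a mean of at least 50, Cd36 was not tested.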
